A study of Homo sapiens with 6 samples.

Results

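The expression of 47 genes of mitosis and the spindle was followed in clones of SKOV3 and A2780s, established human ovarian cancer cell lines, in which the adaptor protein Hic-5 was the target of shRNA or was expressed from a vector. The genes were chosen by name as a set of mitotic kinases, checkpoint proteins, kinetochore proteins, spindle motors, condensin subunits and cytokinesis proteins, with earlier results of these data known. All 47 were found among the 26036 genes named on the Agilent Whole Human Genome array, by 59 of its 41000 probes. For the 10 genes with several probes, the brightest probe stands for the gene. In SKOV3, the clones sh-S1 and sh-S2 carried shRNA against Hic-5 in the lentiviral vector pLKO.1-puro, and the Ctrl clone carried a scrambled sequence in the same vector, all under puromycin selection. In A2780s, the clone pCMV-Hic-5 had been transfected with human Hic-5 in pCMV6 and its Ctrl clone with the empty vector, both under neomycin selection. Each of the 5 RNAs came from 1 clone. Every clone was hybridized with the Ctrl of its line on 2 arrays with the dyes Cy3 and Cy5 exchanged, which gave 4 arrays in SKOV3 and 2 in A2780s. Since both arrays of a clone repeat 1 pair of RNAs, they were taken as a single replicate.

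A dividing cell builds most of these proteins late in its cycle and destroys many of them when it leaves mitosis. CDK1 with cyclin B starts mitosis, the checkpoint holds chromosome separation until kinetochores are attached to the spindle, the anaphase-promoting complex then triggers separation, and the central spindle with the contractile ring divides the cell. Their genes are transcribed together in G2 and mitosis, largely through promoter elements named the cell cycle homology region (CHR) and CCAAT boxes, and in a growing culture their summed RNA follows the share of dividing cells. In bulk RNA, fewer dividing cells and less RNA per dividing cell cannot be told apart.

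RefSeq promoter windows on GRCh38.p14, each with 250 bases before and 50 after a start site, were at hand for 39 of the 47 genes, 51 windows in all. CCAAT, read on both strands, was in 36 of the 51 windows (70.6%), against 34.6% of all 35116 promoter windows. The CHR, searched as TTTGAA or TTCGAA on both strands, was in 31 windows (60.8%), against 16.4% of all. Matches of CCAAT and the CHR overlapped in 1 of the 51 windows, and TTCGAA reads the same on both strands. A match is a description of letters and not of a bound site. The 150 bases before the start of NCAPG, ANLN, KIF23 and PRC1 are shown because these genes were among the lowest in the SKOV3 comparison, and those of NEK2, ASPM and CENPE because these were the 3 that were higher at the adjusted p. The low genes shown are a selection. SPC25, lower than PRC1, had a window with both kinds of match that is not shown, and BUB3 and RACGAP1 had no window. Capitals mark CCAAT and CHR matches on either strand. The stretches are chr4:17810829-17810978 (NCAPG, plus strand), chr7:36389712-36389861 (ANLN, plus), chr15:69414199-69414348 (KIF23, plus), chr15:90994536-90994685 (PRC1, minus), chr1:211675622-211675771 (NEK2, minus), chr1:197146670-197146819 (ASPM, minus) and chr4:103198344-103198493 (CENPE, minus).
NCAPG: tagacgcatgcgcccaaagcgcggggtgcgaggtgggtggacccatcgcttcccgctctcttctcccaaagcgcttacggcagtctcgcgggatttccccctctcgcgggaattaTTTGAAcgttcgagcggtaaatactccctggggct
ANLN: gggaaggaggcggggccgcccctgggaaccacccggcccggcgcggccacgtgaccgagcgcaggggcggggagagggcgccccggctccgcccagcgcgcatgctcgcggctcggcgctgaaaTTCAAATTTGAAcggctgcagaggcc
KIF23: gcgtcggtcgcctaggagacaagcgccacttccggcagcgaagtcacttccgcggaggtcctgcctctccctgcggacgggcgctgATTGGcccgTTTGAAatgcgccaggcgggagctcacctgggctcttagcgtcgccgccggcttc
PRC1: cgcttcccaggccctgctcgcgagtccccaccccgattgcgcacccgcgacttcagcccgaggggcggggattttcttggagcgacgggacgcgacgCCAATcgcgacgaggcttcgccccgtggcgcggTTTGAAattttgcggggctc
NEK2: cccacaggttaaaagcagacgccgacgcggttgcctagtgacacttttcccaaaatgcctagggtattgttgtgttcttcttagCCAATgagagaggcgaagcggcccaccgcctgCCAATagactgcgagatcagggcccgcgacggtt
ASPM: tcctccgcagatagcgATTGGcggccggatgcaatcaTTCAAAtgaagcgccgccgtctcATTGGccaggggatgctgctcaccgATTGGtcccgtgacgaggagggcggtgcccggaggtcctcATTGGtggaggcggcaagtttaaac
CENPE: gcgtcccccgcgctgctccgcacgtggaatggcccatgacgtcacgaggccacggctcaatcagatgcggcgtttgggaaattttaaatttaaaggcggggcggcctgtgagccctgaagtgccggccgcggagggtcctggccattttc
NCAPG and ANLN held CHR matches and no CCAAT in these stretches, KIF23, PRC1 and ASPM held both, NEK2 held CCAAT on its own, and CENPE held neither.

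All ratios are clone over Ctrl on the log2 scale, so that -1 is a level 2-fold lower in the clone. The targeted gene was read first. TGFB1I1, which encodes Hic-5, had log2 ratios of -0.16 and 0.12 for sh-S1 and of -0.11 and 0.28 for sh-S2, with the clone in Cy5 first and in Cy3 second. The submitters state that knockdown clones were checked by quantitative RT-PCR and Western blot, which were not analysed here. On the SKOV3 arrays the gene was not lower, and the directions below rest on the labels of these clones: sh-S1 and sh-S2 stand below for RNAs so labelled. In A2780s it was higher in pCMV-Hic-5, at 4.05 and 2.60. The SKOV3 RNAs also stood apart in markers of their tissue. Of 20 marker genes of epithelial, ovarian or Mullerian, leukocyte, endothelial and fibroblast cells, 13 could be tested in SKOV3. By the limma adjusted p used below with a change of at least 2-fold, 5 of these were lower and none was higher. The same rule called 4.15% of all probes lower and 2.97% higher. Of the 6 epithelial markers 4 were tested. EPCAM and CDH1 were not, and the paper reports their proteins as raised in the knockdown clones. The 5 lower genes were KRT7, KRT8, KRT18, KRT19 and PAX8, with PAX8 12.0-fold lower on its brightest probe and at -0.06 on its other. Probes of KRT18 and KRT8 differed too, from -3.525 on the brightest to 0.006 and from -2.14 on the brightest to -0.38. The summed level of the 6 epithelial markers was 39943 to 57396 in the SKOV3 Ctrl, 6089 to 8967 in the RNAs labelled sh-S1 or sh-S2, and 1767 to 2766 in the A2780s RNAs. The 3 ovarian or Mullerian markers summed to 11657 to 17090, 1209 to 2025 and 561 to 740 in the same order. Leukocyte markers ran from 1101 to 1418, endothelial markers from 297 to 349 and fibroblast markers from 723 to 958 over all RNAs, with PECAM1 well above background in 1 channel of the 12. The part of this difference in the SKOV3 values below was not tested.

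Signals were strong in Cy3 and weak in Cy5 on the SKOV3 arrays, for all spots as for the mitosis genes. The median signal of the mitosis genes over background was 2855 to 5651 units in Cy3 and 71.2 to 234 in Cy5, against 3484 to 5819 over both dyes in A2780s. Over all non-control spots the medians were 373 to 530 in Cy3 and 9.52 to 25.5 in Cy5, against 325 to 568 over both dyes in A2780s. Of the 47 genes, 46 were well above background in every channel, and MKI67 missed this in Cy5 on some arrays. The 4 SKOV3 arrays shared 1 slide and 1 scan, and the A2780s arrays another, which leaves the slide and the cell line inseparable: they cannot be told apart.

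In SKOV3, mitosis genes were lower in the RNAs labelled sh-S1 or sh-S2 more often than higher, and the lowest median of the 8 role groups was that of the cytokinesis genes. The question was whether the clones made against Hic-5 differ from Ctrl in this programme. All 47 genes were tested. With limma and Benjamini-Hochberg adjustment over all 24958 probes tested, 17 genes were lower and 3 higher with adjusted p no higher than 0.05, and the other 27 did not pass. Among all probes 16.2% were lower and 15.5% higher by this rule, against 36.2% and 6.38% of the mitosis genes. With a change of at least 2-fold added, 2 genes were lower, NCAPG and BUB3, and none was higher, by both the adjusted and the unadjusted p, where 4.15% of all probes were lower and 2.97% higher. The median log2 ratio was -0.22 over the 47 genes and 0.00 over all probes. A single Ctrl RNA served both clones, and its own spread is not in the test. The mitosis genes were bright, and 26 of them lay in the brightest 20% of probes. By the adjusted p alone, 24.4% of the probes in this part were lower and 33.4% higher.

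**Figure D1:**
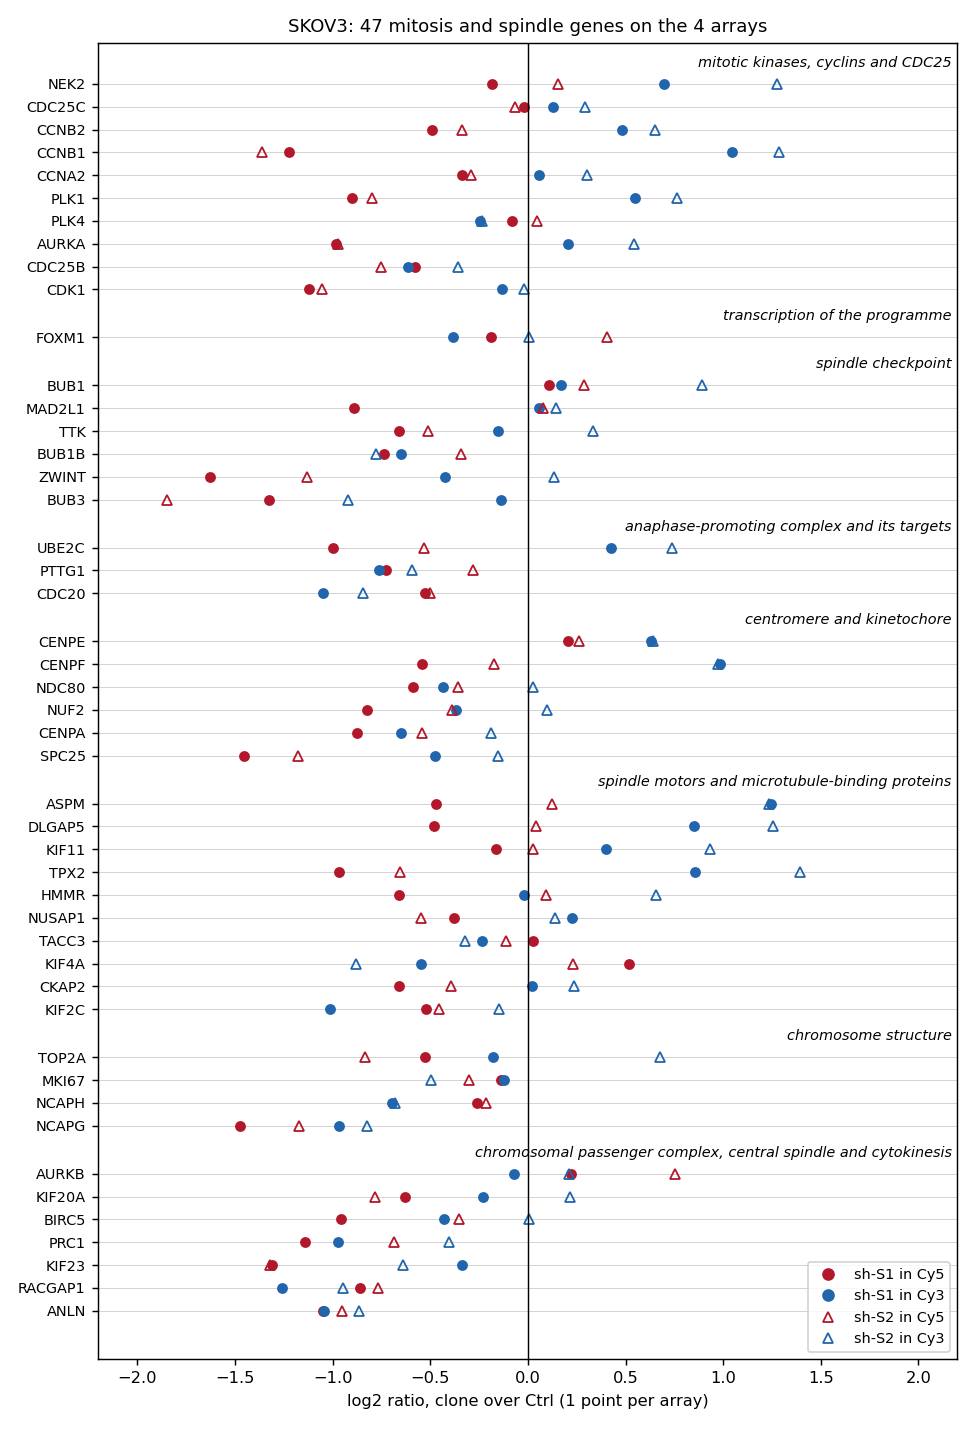
Log2 ratio of clone over Ctrl (x axis) for each of the 47 genes (rows, grouped by role), 1 point per SKOV3 array, with circles for sh-S1, triangles for sh-S2, red for the clone in Cy5 and blue for the clone in Cy3. ANLN, RACGAP1 and NCAPG lie left of 0 on all 4 arrays, while CCNB1 and TPX2 lie on opposite sides of 0 in red and blue.

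Genes of the chromosomal passenger complex, central spindle and cytokinesis were the lowest group, with a median of -0.80 and 5 of 7 lower at the adjusted p. ANLN encodes anillin, which links actin, myosin and septins in the contractile ring. Its log2 ratios were -1.05 and -1.05 for sh-S1 and -0.95 and -0.87 for sh-S2, clone in Cy5 first. All 4 arrays lay close together, and the mean was -0.98 ± 0.10 (SD, n = 2 clones; limma adjusted p = 0.000498). RACGAP1 encodes a GTPase-activating protein of the central spindle and had values of -0.86, -1.26, -0.77 and -0.95 in the same array order, with a mean of -0.96 ± 0.14 (limma adjusted p = 0.000648). Its second probe gave -0.87. KIF23, the kinesin that joins RACGAP1 in the centralspindlin complex, was at -1.31, -0.34, -1.32 and -0.64, lower on every array and further from 0 when the clone was in Cy5. Its mean was -0.90 ± 0.11 (limma adjusted p = 0.000737). PRC1, which bundles the antiparallel microtubules of the central spindle, was at -1.14, -0.97, -0.69 and -0.40, with a mean of -0.80 ± 0.36 (limma adjusted p = 0.00513) and the values of sh-S1 below those of sh-S2. KIF20A, a kinesin of the same structure, was the smallest change that passed, at -0.36. AURKB and BIRC5 (survivin), the kinase and a small subunit of the passenger complex, did not pass, at 0.28 and -0.43.

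Among the 4 genes of chromosome structure, both condensin I subunits were lower. NCAPG was the lowest of the 47 genes, with log2 ratios of -1.47 and -0.97 for sh-S1 and of -1.17 and -0.82 for sh-S2. No array came near 0. The mean was -1.11 ± 0.16, a 2.16-fold lower level (95% interval of the log2 ratio -1.35 to -0.86, limma adjusted p = 0.00038). NCAPH was at -0.46 ± 0.02. TOP2A, the topoisomerase that untangles sister chromosomes, was at -0.53, -0.18, -0.84 and 0.68 and did not pass. MKI67, the antigen used to count cycling cells, was at -0.14, -0.12, -0.30 and -0.49, lower on every array, with a mean of -0.26 ± 0.19 that missed the threshold (limma adjusted p = 0.11). Both clones were not well above background in Cy5 for this probe, and the value moved with the processing: the deposited log ratios gave -1.21 (limma adjusted p = 0.00329) and median centring gave -0.34 (limma adjusted p = 0.0454).

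At the spindle checkpoint, 3 of 6 genes were lower. BUB3, which brings checkpoint kinases to kinetochores, had values of -1.33 and -0.14 for sh-S1 and of -1.85 and -0.92 for sh-S2. All were below 0, but they spanned a wide range, and the mean was -1.06 ± 0.46 (limma adjusted p = 0.00289). Its other probes disagreed in size, at -0.74, -0.24 and, for the dimmest, 0.02, so the call rests on the brightest probe. ZWINT, a kinetochore scaffold, was at -0.76 ± 0.37, with 1 of 4 arrays above 0. BUB1B, the checkpoint protein BubR1, was at -0.74, -0.65, -0.34 and -0.78, with a mean of -0.63 ± 0.09 (limma adjusted p = 0.00326). TTK, MAD2L1 and BUB1 did not pass, at -0.25, -0.15 and 0.36, and BUB1 was above 0 on all 4 arrays.

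CDC20, the activator of the anaphase-promoting complex, was at -0.53, -1.05, -0.50 and -0.85, a mean of -0.73 ± 0.08 (limma adjusted p = 0.00164). PTTG1, the securin that this complex destroys, was at -0.59 ± 0.22. UBE2C, its ubiquitin-conjugating enzyme, was at -1.0, 0.43, -0.53 and 0.74 and did not pass.

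Kinetochore genes were divided. SPC25, a subunit of the NDC80 complex that grips microtubules, was at -1.45, -0.47, -1.18 and -0.15, with a mean of -0.81 ± 0.21 (limma adjusted p = 0.00188). CENPA, the histone H3 variant that marks the centromere, was at -0.56 ± 0.28. CENPE, a kinetochore kinesin, ran the other way, at 0.21, 0.63, 0.26 and 0.64, with a mean of 0.43 ± 0.02 (limma adjusted p = 0.0126). NDC80, NUF2 and CENPF did not pass, at -0.34, -0.37 and 0.31.

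The kinase, cyclin and motor groups held both directions. CDK1 was at -1.12, -0.13, -1.06 and -0.02, with a mean of -0.58 ± 0.06, and CDC25B, a phosphatase that activates it, at -0.58 ± 0.03. Both were lower at the adjusted p. For CDK1 the values with the clone in Cy5 carried the mean. The SD and the adjusted p are those of the clone means, so a gap between the dyes is not in them. NEK2, a centrosome kinase, was at -0.18, 0.70, 0.15 and 1.28, and its mean of 0.49 ± 0.32 was higher at a limma adjusted p of 0.0291. ASPM, a spindle pole protein, was at -0.47, 1.24, 0.12 and 1.24, with a mean of 0.53 ± 0.21 (limma adjusted p = 0.0107). For both, 1 array lay below 0 and the values with the clone in Cy3 carried the mean, and their second probes gave 0.18 and 0.17. NEK2 no longer passed the adjusted p with the mean over its probes, at 0.34 (limma adjusted p = 0.0824). With median centring NEK2, ASPM and CENPE did not pass it, at 0.44, 0.34 and 0.32 (limma adjusted p = 0.0682, 0.11 and 0.0657). Nor did they with the clones in Cy5 only. DLGAP5, which stabilises spindle microtubules, had a mean of 0.42 that missed the threshold (limma adjusted p = 0.0506). Of the 10 motors and microtubule-binding proteins, KIF2C, a microtubule depolymerase, was lower at -0.54 ± 0.33 and ASPM was higher. FOXM1, the forkhead factor that activates much of this programme, was at -0.04 ± 0.35.

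The direction changed with the dye for a part of the genes. Of the 47, 16 were lower on all 4 SKOV3 arrays (19.5% of all probes were) and 2, BUB1 and CENPE, were higher on all 4 (18.5% of all probes). The 16 included 15 of the 17 genes lower at the adjusted p, without ZWINT and KIF20A, and MKI67 besides. CDK1 was among the 16 with 1 array at -0.02, about 0. A further 11 genes were lower whenever the clone was in Cy5 and higher whenever it was in Cy3, against 12.9% of all probes, and KIF4A ran the opposite way. CCNB1, which encodes cyclin B1, showed this most plainly, at -1.23 and -1.36 with the clones in Cy5 and at 1.04 and 1.29 with them in Cy3. Its mean of -0.06 is the middle of values that do not meet. TPX2, PLK1, AURKA, CENPF and UBE2C had the same split. The median over the 47 genes was -0.51 with the clones in Cy5 and -0.08 with them in Cy3. In the brightest 20% of probes these medians were -0.06 and 0.20. The part of the dim Cy5 channel in this split was not tested.

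**Figure D2:**
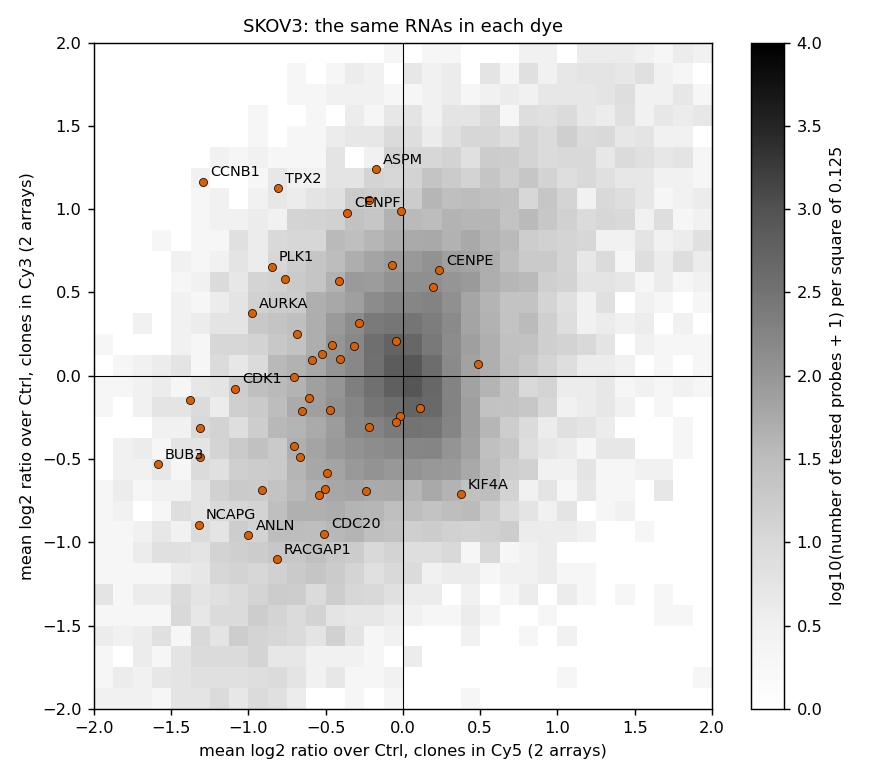
Mean log2 ratio over Ctrl with the SKOV3 clones in Cy5 (x axis) against the mean with the clones in Cy3 (y axis), orange points for the 47 mitosis genes and grey squares for the number of tested probes. NCAPG, ANLN, RACGAP1 and CDC20 lie in the lower left, where both dyes give lower values, and CCNB1, TPX2 and PLK1 in the upper left, where the dyes disagree.

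The scaling moved these counts. Without loess, after centring each array on its median, 22 genes were lower and 0 higher at the adjusted p and 6 were lower by at least 2-fold, but only 1 gene was lower on all 4 arrays. With the clones in Cy5 only, 31 were lower and 2 higher, and with the clones in Cy3 only 11 were lower and 11 higher. Shares of all probes were determined for the main processing only, so these counts cannot be set against a change of all probes. The 2-fold call of BUB3 rested on sh-S2. Without that RNA, 5 genes were lower by 2-fold with both arrays in the same direction, NCAPG, ANLN, RACGAP1, PRC1 and ZWINT, and BUB3 was not. Without sh-S1, BUB3 was the 1 gene that passed.

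Levels of some genes are set beside both Ctrl RNAs, on the log2 scale of channel levels. NCAPG, RACGAP1, ANLN and SPC25 were picked for lying below the SKOV3 Ctrl, so their distance from it follows from the choice, and CENPE and BUB1 were added for lying above it. NCAPG had a level of 13 in the SKOV3 Ctrl, 11.67 and 12.11 in those labelled sh-S1 and sh-S2, and 11.78 in the A2780s Ctrl. RACGAP1 had levels of 12.67, 11.73, 11.70 and 11.48 in that order, and ANLN levels of 10.68, 9.70, 9.71 and 9.57. For SPC25 the levels were 11.18, 10.25, 10.48 and 10.96, below both Ctrl RNAs in the clones, and for CENPE they were 9.94, 10.34, 10.42 and 9.95, above both. BUB1 had levels of 10.14, 10.33, 10.68 and 11.25, between both Ctrl RNAs in the clones. The lines were read on different slides, and no test was made.

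Between the clones, mitosis genes were higher in the RNA labelled sh-S2 than in that labelled sh-S1. This difference was taken within each dye, where the Ctrl and the dye effect of a probe drop out, and it is a description of 2 RNAs with no test. The log2 difference of sh-S2 minus sh-S1 was above 0 in both dyes for 33 of 47 genes (70.2%), against 27.5% of all probes, and below 0 in both for 6. The share of all probes below 0 in both dyes was not determined. Its median was 0.22, with 0.16 in Cy5 and 0.25 in Cy3, against -0.01 over all probes. With both dyes in the same direction, the mean difference reached 1.5-fold higher for 1 gene (1.32% of all probes) and 1.5-fold lower for 1 gene (1.73% of all probes). The higher gene was HMMR, a spindle assembly factor and hyaluronan receptor, with differences of 0.75 and 0.68. The lower gene was BUB3, at -0.52 and -0.78. FOXM1 differed by 0.59 and 0.39 and PRC1 by 0.45 and 0.57.

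**Figure D3:**
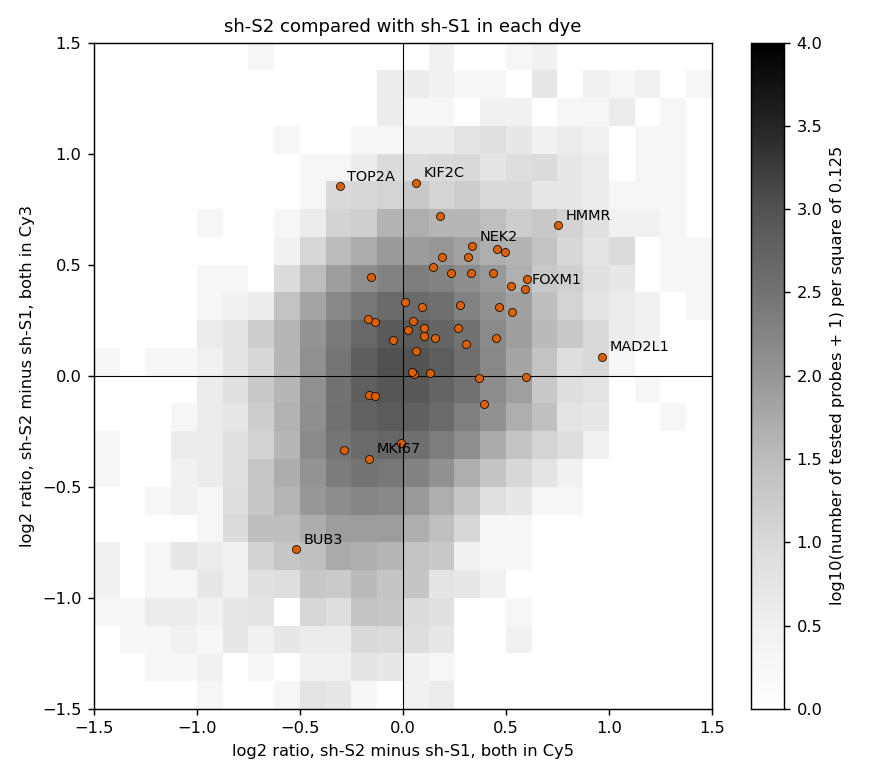
Log2 ratio of sh-S2 minus sh-S1 with both clones in Cy5 (x axis) and in Cy3 (y axis), orange points for the 47 genes and grey squares for the number of tested probes. Most points, 33 of 47, lie in the upper right, with HMMR at 0.75 and 0.68, and BUB3 lies in the lower left.

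In A2780s, the pCMV-Hic-5 clone had slightly lower values than Ctrl for most mitosis genes, on 2 arrays of 1 pair of RNAs that allow no test. The question was whether added Hic-5 goes with a change of this programme. FOXM1 lost 1 spot to an outlier flag, which left 46 genes. Of these, 31 were lower on both arrays (67.4%), against 28.5% of all probes, and TTK, TPX2 and KIF11 were higher on both. The mean of KIF11 was 0.05 on its brightest probe and -0.31 on its other. The share of all probes higher on both arrays was not determined. The median was -0.20, with -0.31 for the clone in Cy5 and -0.09 for the clone in Cy3, against -0.01 over all probes. By the rule of a mean of at least 1.5-fold with both arrays in the same direction, 1 gene was lower, SPC25, and none higher, where 1.32% of all probes were lower and 3.26% higher. SPC25 was at -1.06 on the array with pCMV-Hic-5 in Cy5 and -0.67 on the other, a 1.82-fold lower mean. The next lowest were ANLN at -0.88 and -0.26, DLGAP5 at -0.65 and -0.47 and MAD2L1 at -0.92 and -0.19. The highest means were those of TTK (0.16), NUF2 (0.15), CDC25C (0.14) and KIF2C (0.12), all far inside 1.5-fold. MKI67 was at -0.37 and -0.06, and FOXM1 at -0.33 on its remaining array.

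**Figure D4:**
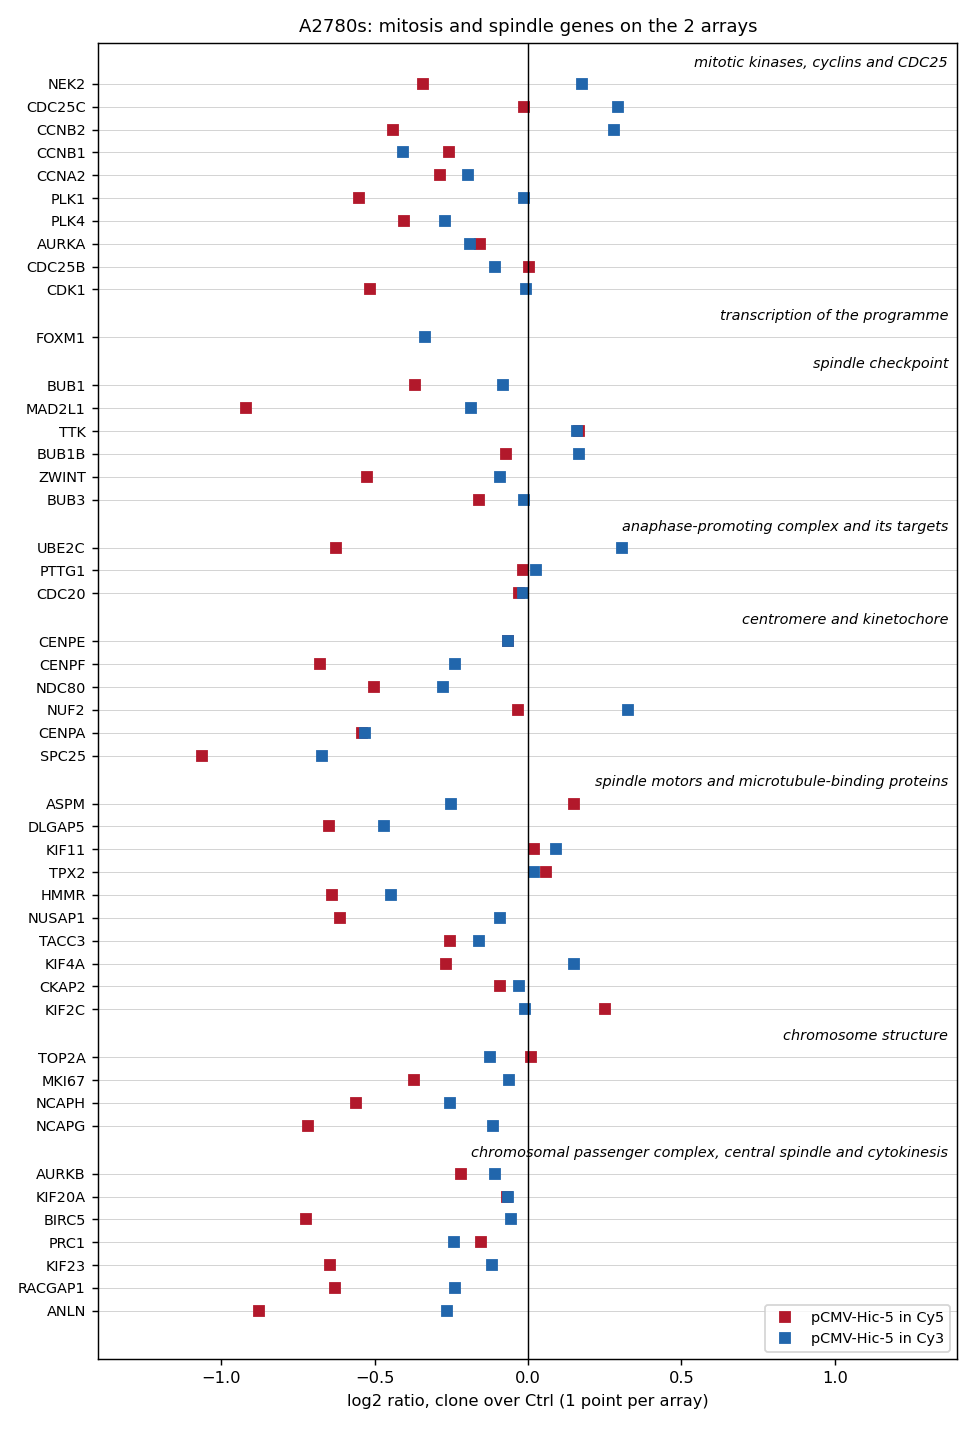
Log2 ratio of pCMV-Hic-5 over Ctrl (x axis) for each gene (rows, grouped by role), 1 square per A2780s array, red for the clone in Cy5 and blue for it in Cy3. Squares of 31 genes lie left of 0 in both colours, with SPC25 the furthest left in its mean.

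All 7 genes of the passenger complex, central spindle and cytokinesis were lower on both A2780s arrays, with a median of -0.38. The kinetochore group had a median of -0.42, with 5 of 6 lower on both, and CENPA, at -0.54 and -0.53, had nearly equal values in the dyes. The spindle motors had a median of -0.06 with 5 of 10 lower on both. CCNB1, which split by dye in SKOV3, was lower on both arrays here, at -0.26 and -0.41.

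Other genes of the same process were read from lists chosen by function. Of 66 other mitosis genes, 65 were tested in SKOV3, 21 were lower and 8 higher at the adjusted p, where 16.2% and 15.5% of all probes were, with a median of -0.12. At 2-fold, which 4.15% of all probes passed lower and 2.97% higher, MELK (-1.38), a kinase of dividing cells, ECT2 (-1.27), the RhoA exchange factor that RACGAP1 activates, CEP55 (-1.17), a scaffold of the last cut between daughter cells, and SKA3 (-1.06), a kinetochore protein, were lower, and the condensin subunit NCAPD2 (1.05) was higher. The other ECT2 probes gave -0.67 and -0.31. NCAPD2, a subunit of the complex of NCAPG and NCAPH, was thus higher where both of these were lower, and the condensin subunits SMC2 (-0.76, limma adjusted p = 0.00134) and SMC4 (-0.84, limma adjusted p = 0.0019, with another probe at -0.19) were lower as well. In A2780s, 32 of the 66 were lower on both arrays, as were 28.5% of all probes, and 16 were higher on both, with no share of all probes determined. INCENP (-0.97), CEP55 (-0.73) and CDCA2 (-0.63, with another probe at -0.28) passed 1.5-fold lower, MIS12 (1.29) and CENPK (0.60) higher. By this rule 1.32% of all probes were lower and 3.26% higher. Of 19 regulators of mitotic transcription, 18 were tested in SKOV3, with 5 lower and 3 higher at the adjusted p, against the same 16.2% and 15.5% of all probes. RB1 (-1.38, with another probe at -0.04), E2F7 (-1.28) and E2F1 (-1.06) were lower by 2-fold, and CDKN1A, which encodes the CDK inhibitor p21, was higher at 1.01, with another probe at 0.09. CDKN1A was also higher in pCMV-Hic-5, at 1.13, with its other probe at 0.90, and the repressor E2F8 was lower there at -0.62. Of the 19 regulators these were the 1 higher and the 1 lower by 1.5-fold, against 3.26% and 1.32% of all probes. Of 30 replication genes, 28 were tested in SKOV3, with 9 lower and 3 higher at the adjusted p against these shares and a median of -0.20, and TK1, a thymidine kinase, was lower by 2-fold at -1.47. In A2780s FEN1 (-0.61) and UHRF1 (-0.63) were lower and CDC6 (0.66) higher by 1.5-fold, against the same 1.32% and 3.26% of all probes. The other probes of FEN1 and UHRF1 gave -0.56 and -0.40, short of 1.5-fold.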

How the data were processed

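RNA of 5 clones was read on 6 Agilent two-colour arrays. The authors deposited spot intensities from Agilent Feature Extraction, not normalized (version 8.5.1.1 per the submitters' processing notes, 10.7.3.1 per the file headers), and log10 ratios (Cy5 over Cy3 on every array, whichever dye the clone had). The study's text does not name the background correction, normalization or test. Intensities were corrected by normexp with an offset of 50 (limma 3.58.1, R 4.3.3), fitted without spots flagged for background or with a local background over 1000, a choice made after the data were seen. Ratios were normalized by loess within arrays, control and outlier spots were left out, and ratios were turned to clone over Ctrl. Probes were used if flagged well above background for the Ctrl on every array of the line, or for a clone on both arrays: 24958 in SKOV3 and 30531 in A2780s. In SKOV3, each clone's value was the mean of its dye swap, and the 2 clones were tested against 0 (lmFit, eBayes, Benjamini-Hochberg). Channel levels came from loess and Aquantile. The fit was tested on simulated data. Genes were named when called, among the 4 highest or lowest of a line, past the adjusted p with at least 1.5-fold, or as MKI67, FOXM1 or TGFB1I1, and others as members of their group. The genes and lists were chosen with earlier results of these data known. The number of arrays and the signal over background limit the precision. Figures were drawn with matplotlib 3.10.9 from the ratios.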

Additional observations from a re-analysis of the deposited data

Results flagged for a closer look

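Clones of SKOV3 went opposite ways for 2 of the 47 genes, with both arrays of sh-S1 on one side of 0 and both arrays of sh-S2 on the other, as for 3.69% of all 24958 probes tested. HMMR was at -0.66 and -0.02 in the RNA labelled sh-S1 and at 0.09 and 0.66 in that labelled sh-S2, so that the clone means differed by 0.72 on the log2 scale. FOXM1 was at -0.19 and -0.39 in sh-S1 and at 0.40 and 0.00 in sh-S2, a difference of 0.49. The values of -0.02 and 0.00 lay at about 0. These differences were not tested, since each clone is 1 RNA.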

How the results depend on the processing

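In SKOV3, mitosis genes lower at the adjusted p numbered 17 and stayed at 17 to 22 with the deposited log ratios, median centring, normexp on all spots, no filter or the mean over all probes of a gene, and 16 or 17 of the 17 genes were among them each time. With the clones in Cy5 only the count was 31, and with them in Cy3 only it was 11. Genes higher at the adjusted p numbered 3, and 5 with the deposited ratios, 0 with median centring and 11 with the clones in Cy3 only. Genes called lower by 2-fold numbered 2, against 6 with median centring, 1 with the mean over probes (NCAPG), 8 with the clones in Cy5 only and 1 with them in Cy3 only (RACGAP1), where 4 were called higher (CCNB1, TPX2, DLGAP5 and ASPM). The deposited ratios called NCAPG, MKI67 and ANLN. Leaving out 1 clone, by fold alone with no test, gave 1 to 5. No count at the adjusted p was possible with 1 clone. The SKOV3 median of -0.22 became -0.39 with median centring, -0.51 with the clones in Cy5 only and -0.078 with them in Cy3 only, and lay between -0.35 and -0.16 without 1 clone. With the clones in Cy3 only, 10 of the 17 genes kept the adjusted p, and BUB3, SPC25, ZWINT and KIF2C were among those that did not. DLGAP5 passed it, as higher, with the clones in Cy3 only and also with the deposited ratios (limma adjusted p = 0.039). Genes lower on all 4 arrays fell from 16 to 1 with median centring. Single genes changed sign: DLGAP5 (-0.22), NEK2 (-0.014), ASPM (-0.18) and CDC25C (-0.044) with the clones in Cy5 only, where FOXM1 was at 0.11, MAD2L1 (0.10) and TTK (0.092) with them in Cy3 only, CDC25C (-0.023) with median centring, FOXM1 (0.12) with the deposited ratios, and MAD2L1 (0.11) and FOXM1 (0.20) without sh-S1, against -0.42 and -0.29 without sh-S2. In A2780s, 3 genes were called lower with the deposited ratios and 12 with the clone in Cy5 only, against 1. The median there stayed between -0.31 and -0.09. Genes lower on both arrays there numbered 26 to 32, and genes higher in sh-S2 in both dyes 30 to 40, under alternatives chosen after seeing the data. Shares of all probes were determined for the main processing only, so the counts under the alternatives have none beside them. The causes of these changes were not tested. No paired analysis was possible because replicate numbers name the dye-swapped arrays of 1 RNA pair, which are averaged. The dim Cy5 channel and the single Ctrl RNA limit the SKOV3 values.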
